A study of Homo sapiens with 6 samples.

Results

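The Kruppel-like factors (KLFs) are a family of zinc-finger transcription factors, and 10 of them, KLF2, KLF3, KLF4, KLF5, KLF6, KLF7, KLF9, KLF10, KLF11 and KLF13, were followed here in RNA-seq of H69AR cells. The genes were taken by their symbol, and each of the 10 had 1 line among the 27852 named genes of the deposited table. H69AR is a multidrug-resistant, nonneuroendocrine derivative of the small-cell lung cancer (SCLC) line H69, selected in rising doses of adriamycin. The cells were transfected by lipofection either with a nonspecific control siRNA (siCtrl) or with a single siRNA duplex against TREX1 (siTREX1, #1), the exonuclease that degrades DNA in the cytoplasm, and RNA was taken on day 3. Each group had 3 libraries, whose values are always given here in the order of replicates 1 to 3. Untransfected cells, the second TREX1 siRNA and other lines were not analysed here. The comparison asked which KLF mRNAs differed between the libraries labelled siTREX1 and siCtrl.

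KLFs bind GC-rich and CACCC-type DNA through 3 zinc fingers at the C-terminus, which are nearly alike across the family, so that members can compete for the same sites with each other and with the related SP proteins. They differ in the rest of the protein, which sorts them by partner. KLF9, KLF10, KLF11 and KLF13 recruit the corepressor Sin3A, KLF3 recruits the corepressor CtBP, and KLF2, KLF4, KLF5, KLF6 and KLF7 act largely as activators through acetyltransferases such as p300. Several are early response genes, with KLF10 and KLF11 first described as induced by TGF-beta, KLF9 induced by glucocorticoid and thyroid hormone, and KLF2 and KLF4 by the ERK5-MEF2 pathway.

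RefSeq promoter windows, 250 bases before to 50 after a start site on GRCh38.p14, were at hand for 8 of the 10 genes and not for KLF3 or KLF10. In 6 of them (KLF2, KLF4, KLF6, KLF7, KLF9 and KLF13) the RefSeq start lay within 150 bases of the start of the transcript listed in the table. Stretches of 30 bases before the start are shown for 3 genes whose windows hold different motifs, with the motif in capitals: for KLF2 a match to the MEF2 pattern (CTA and TAG with any 4 bases between them), for KLF4 a GC box of the kind SP and KLF proteins bind, and for KLF9, the member with the largest difference between the groups, an inverted CCAAT.
KLF2, chr19:16324696-16324725, plus strand: tataccgcggCTAAATTTAGgctgcgcccg
KLF4, chr9:107489827-107489856, minus strand: aagaaagggaGGGGCGGGGcatgggagaag
KLF9, chr9:70414730-70414759, minus strand: tttttaagatgaATTGGtcatagttaatgt
The MEF2 pattern was in 1 of the 6 windows, that of KLF2, and in 2.73% of 35116 promoter windows of the same length. The GC box GGGGCGGGG was in 3 of the 6 (KLF2, KLF4 and KLF13) and in 15.7% of the 35116. The looser CACCC-type pattern CCNCNCCC, which overlaps the GC box, was in 5 of the 6 and in 56.2% of the 35116. The KLF9 window, with 32.7% G and C against 56.7% to 80.7% in the other 5, held neither of these patterns. CCAAT was in 3 of the 6 (KLF6, KLF9 and KLF13, with 2 copies each) and in 34.6% of the 35116. TGACGTCA, TGANTCA, the NF-kappaB pattern (GGGA and CC with any 4 bases between them), TATAAA and the CArG box were in 0 of the 6 windows and in 1.85%, 7.71%, 25.6%, 11.5% and 1.29% of the 35116. Both strands were searched, and a match is a run of letters, not a measured site.

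Library totals ran from 16329106 to 22482687 estimated counts. TREX1 itself was at 22.7 to 31.5 CPM (estimated counts per 1e+06, scaled by TMM factors) with siCtrl and at 28.4, 16.0 and 18.2 CPM in the libraries labelled siTREX1 replicates 1, 2 and 3, a log2 fold change (log2FC, siTREX1 against siCtrl) of -0.33 (standard error, SE, 0.24, adjusted p = 0.349 by edgeR), and replicate 1 did not show the reduction its label names. Without siTREX1 replicate 1 the log2FC of TREX1 was -0.62 (adjusted p = 0.0499), without siTREX1 replicate 2 it was -0.16 (adjusted p = 0.664), and without siCtrl replicate 2 it was -0.18 (adjusted p = 0.671 by edgeR). Each result below is therefore also given without siTREX1 replicate 1 where it bears on a call. Among small-cell subtype and neuroendocrine markers, YAP1 was at 26.4 to 32.0 CPM and INSM1 at 12.4 to 16.8 CPM, and 5 of 8, among them NEUROD1, POU2F3 and CHGA, were under 1 CPM in every library. Of the endothelial markers, a cell type known for KLF2 and KLF4, 5 of 6 were under 1 CPM in every library, and the summed level was 0.246 to 1.85 CPM with siCtrl and 0 to 0.814 CPM in the libraries labelled siTREX1.

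By the transcripts listed in the table, KLF10 had the highest level of the 10 genes in both groups, and KLF4 the lowest. The estimated counts do not depend on transcript length, so these levels can be set beside each other, but they are levels of 1 transcript a gene, from the only one in GENCODE 29 for KLF9 to 1 of 10 for KLF7, and the order need not hold for whole genes. With siCtrl the mean levels ran from KLF10 (39.4 CPM, at the 72.0th percentile of tested genes) through KLF6 (26.3), KLF5 (25.8), KLF11 (20.4), KLF3 (13.5), KLF7 (6.92), KLF9 (5.94), KLF2 (1.26) and KLF13 (0.644) to KLF4 (0.379 CPM). Neighbouring ranges in this order overlapped for KLF6 and KLF5 and for KLF2 and KLF13, and the others were apart. In the libraries labelled siTREX1 KLF5 stood above KLF6 and KLF3 above KLF11, and in that group the ranges of KLF3 and KLF11 overlapped.

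**Figure D1:**
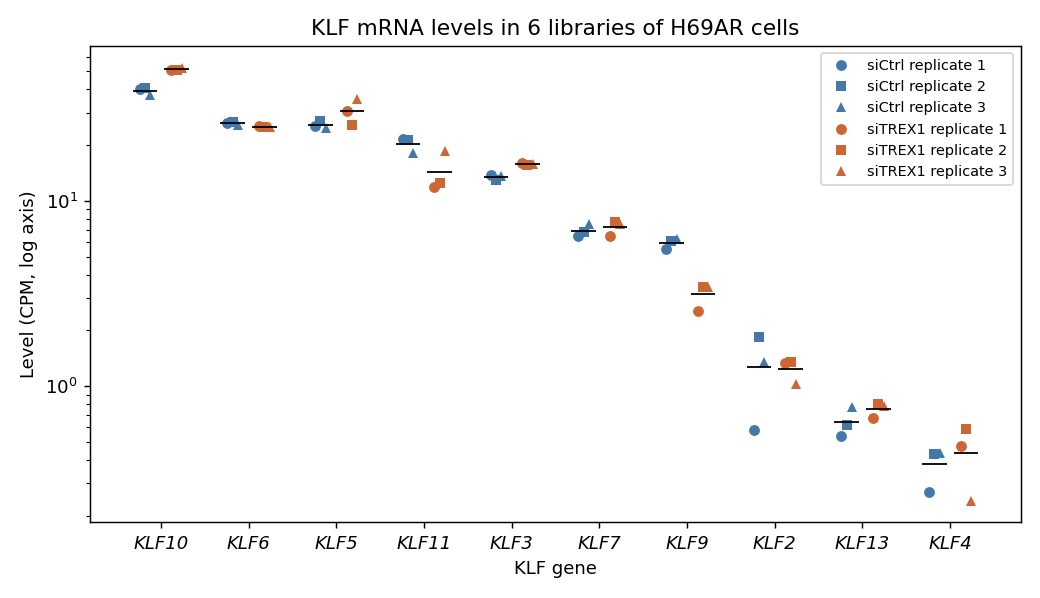
Level of each KLF mRNA (CPM, log axis) in the 3 siCtrl libraries (blue) and the 3 libraries labelled siTREX1 (orange), with symbols for replicates and black lines for group means. KLF10 and KLF3 sat higher and KLF9 lower in every library labelled siTREX1 than in any siCtrl library, while KLF11 was split and KLF2, KLF13 and KLF4 lay near or under 1 CPM.

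Summed over the 10 genes, the level was 140.5 ± 4.62 CPM (SD, n = 3) with siCtrl and 150.1 ± 9.05 CPM (SD, n = 3) in the libraries labelled siTREX1, and the ranges overlapped. KLF10 gave 27.6% to 28.5% of it with siCtrl and 32.7% to 35.4% in the libraries labelled siTREX1, ranges that did not overlap. In bulk RNA, fewer cells that express a gene and less of its mRNA per cell cannot be told apart.

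Across the transcriptome 13221 genes were tested with edgeR's quasi-likelihood test, and a gene was called changed at a Benjamini-Hochberg adjusted p under 0.05. Of the 10 KLF genes 9 had enough counts to be tested. Of these, 2 (KLF10 and KLF3) were called higher and 1 (KLF9) lower in the libraries labelled siTREX1, and 6 were not past the test. Over all tested genes 17.8% were called higher and 15.5% lower, so the share of KLF genes called was near that of the transcriptome. The groups did not overlap for 4 of the 9 (KLF10, KLF3, KLF9 and KLF6), against 50.4% of all tested genes. The median log2FC was 0.07 over the 9 and -0.02 over all tested genes.

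**Figure D2:**
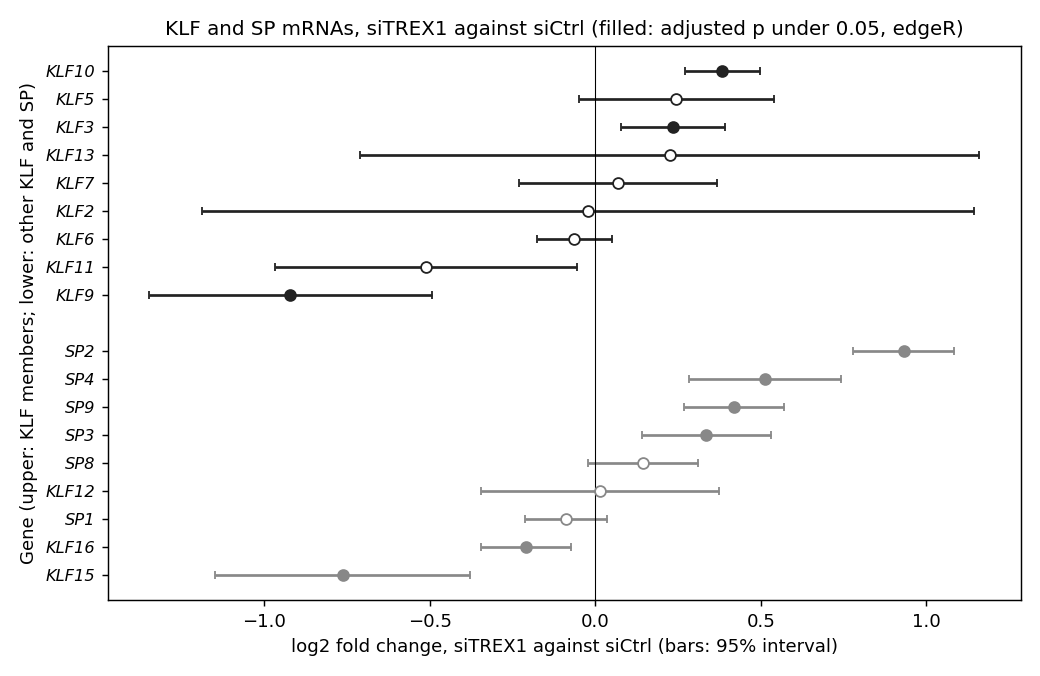
Log2 fold change (log2FC) of the 9 tested KLF genes (black, upper rows) and of the 9 tested other KLF and SP genes (grey, lower rows), with 95% intervals and filled points for an adjusted p under 0.05 in edgeR. KLF10 at 0.38 and KLF9 at -0.92 lay farthest from 0 among the called genes of the upper rows, and KLF2 and KLF13, with few counts, had the widest bars. The value of KLF16, -0.21, was 0.04 once a GC trend was removed.

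The 4 members that bind Sin3A did not share a direction. KLF10, a repressor induced early by TGF-beta, rose in the libraries labelled siTREX1. Its levels were 40.1, 40.8 and 37.5 CPM across the siCtrl libraries, against 51.1, 50.8 and 52.5 CPM across those labelled siTREX1. Each of the latter stood above each siCtrl library, and the spread within either group was small beside the gap. The ratio of means was 1.30, and the log2FC was 0.38 (SE 0.05, adjusted p = 0.00202 by edgeR). The call held without any 1 library (log2FC 0.35 to 0.41, adjusted p at most 0.00958), and without siTREX1 replicate 1, in which the listed TREX1 transcript was not reduced, it was 0.39 (adjusted p = 0.00958).

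KLF9, a repressor that answers to glucocorticoid and thyroid hormone, fell. It was at 5.52, 6.09 and 6.22 CPM across the siCtrl libraries, against 2.54, 3.44 and 3.44 CPM across those labelled siTREX1, from 99 to 128 and 53 to 64 estimated counts. The groups did not overlap, and the lowest value was that of siTREX1 replicate 1. The mean fell by 47.2%, with a log2FC of -0.92 (SE 0.18, 95% interval -1.35 to -0.49, adjusted p = 0.00970 by edgeR). Without any 1 library it was -0.99 to -0.78 (adjusted p at most 0.0407), with the smallest change when siTREX1 replicate 1 was left out (adjusted p = 0.0221). The transcript listed for KLF9, ENST00000377126, has 2 exons and is the only one of the gene in GENCODE 29 on GRCh38, where it spans chr9:70384597-70414624 on the minus strand.

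KLF11, the second TGF-beta-inducible member, was split among the libraries labelled siTREX1. It was at 21.6, 21.5 and 18.1 CPM across the siCtrl libraries, against 11.9, 12.5 and 18.7 CPM across those labelled siTREX1. Replicates 1 and 2 lay below every siCtrl library, and replicate 3 lay within their range. The log2FC was -0.51 (SE 0.19, unadjusted p = 0.0334, adjusted p = 0.0840 by edgeR). Without siTREX1 replicate 3 it was -0.74 (adjusted p = 0.00956), without siTREX1 replicate 1 it was -0.39 (adjusted p = 0.21), and on all 6 libraries DESeq2 (adjusted p = 0.0217) and limma-voom (adjusted p = 0.0470) called it lower. The listed transcript, ENST00000305883 at chr2:10043555-10054836 on the plus strand of GRCh38, is 1 of 6 of the gene, so other KLF11 transcripts are not seen here.

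KLF13, a regulator of the chemokine gene CCL5 in T cells, was at a low level. Its estimated counts ran from 10 to 16 under siCtrl and from 13 to 15 under siTREX1, which is 0.539 to 0.777 and 0.670 to 0.806 CPM. The log2FC was 0.22 with a 95% interval from -0.71 to 1.16 (adjusted p = 0.695 by edgeR). With so few estimated counts the interval is wide, and it holds both a fall and a rise. The listed transcript is 1 of 7 in GENCODE 29.

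KLF3, the CtBP-binding repressor that limits many erythroid and fat-cell genes, was slightly higher in the libraries labelled siTREX1. It was at 13.8, 12.9 and 13.6 CPM across the siCtrl libraries, against 16.0, 15.6 and 15.8 CPM across those labelled siTREX1. The groups did not overlap, and the spread in the second group was small, with an SD of 0.198 CPM. The ratio of means was 1.18, and the log2FC was 0.23 (SE 0.06, adjusted p = 0.0354 by edgeR). The call was lost without any 1 of the 6 libraries (log2FC 0.21 to 0.26, adjusted p = 0.0681 to 0.101, and 0.0932 without siTREX1 replicate 1), in DESeq2 (adjusted p = 0.0694), with no low-count filter (0.0518) and with a GC trend removed (log2FC 0.17, adjusted p = 0.0786 by edgeR). The listed transcript, ENST00000261438, has 6 exons at chr4:38664196-38701042 on the plus strand of GRCh38.

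Of the 4 tested members that act as activators, 0 passed edgeR's test, as in DESeq2 and limma-voom, and at an unadjusted p under 0.05 the count was also 0. Over all tested genes 17.8% were called higher and 15.5% lower, and 4 genes are too few to be set apart from those shares. KLF6, a growth-restraining factor found in most tissues, had the lowest coefficient of variation of the 10 genes in either group, 2.35% and 0.915%. It was at 26.4, 26.8 and 25.6 CPM across the siCtrl libraries, against 25.4, 25.1 and 25.0 CPM across those labelled siTREX1. The groups just failed to overlap, but the log2FC was -0.06 (95% interval -0.18 to 0.05, adjusted p = 0.387 by edgeR).

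KLF5, which promotes proliferation in the gut and other epithelia, scattered in the libraries labelled siTREX1. It was at 25.4, 27.2 and 24.7 CPM across the siCtrl libraries, against 30.5, 25.6 and 35.5 CPM across those labelled siTREX1. Replicate 2 lay within the siCtrl range and the other two lay above it. The log2FC was 0.24 (SE 0.12, adjusted p = 0.175 by edgeR), without siTREX1 replicate 2 it was 0.36 (adjusted p = 0.0394), and without siTREX1 replicate 3 it was 0.13 (adjusted p = 0.382). As the epithelial markers bear on this gene, their summed level was 177 to 186 CPM with siCtrl and 131 to 145 CPM in the libraries labelled siTREX1, with KRT8 and KRT18 tested and both lower. CDH1 and KRT19 were listed at 0, the CDH1 transcript being a retained intron form, and the part of these markers in the KLF5 values was not tested.

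KLF7, known for its role in neurons, was at 6.47 to 7.48 CPM with siCtrl and at 6.51 to 7.74 CPM in the libraries labelled siTREX1, ranges that overlapped. The log2FC was 0.07 (95% interval -0.23 to 0.37, adjusted p = 0.707 by edgeR). KLF2, which keeps endothelial cells and T cells quiescent, had 13, 30 and 28 estimated counts across the siCtrl libraries, against 28, 25 and 17 across those labelled siTREX1. Its log2FC was -0.02 with a 95% interval from -1.19 to 1.15, and its sign changed with the setting. KLF4, a pluripotency and epithelial differentiation factor, had 6, 7 and 9 estimated counts under siCtrl, against 10, 11 and 4 across the libraries labelled siTREX1, which is under the filter, and it was not tested.

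**Figure D3:**
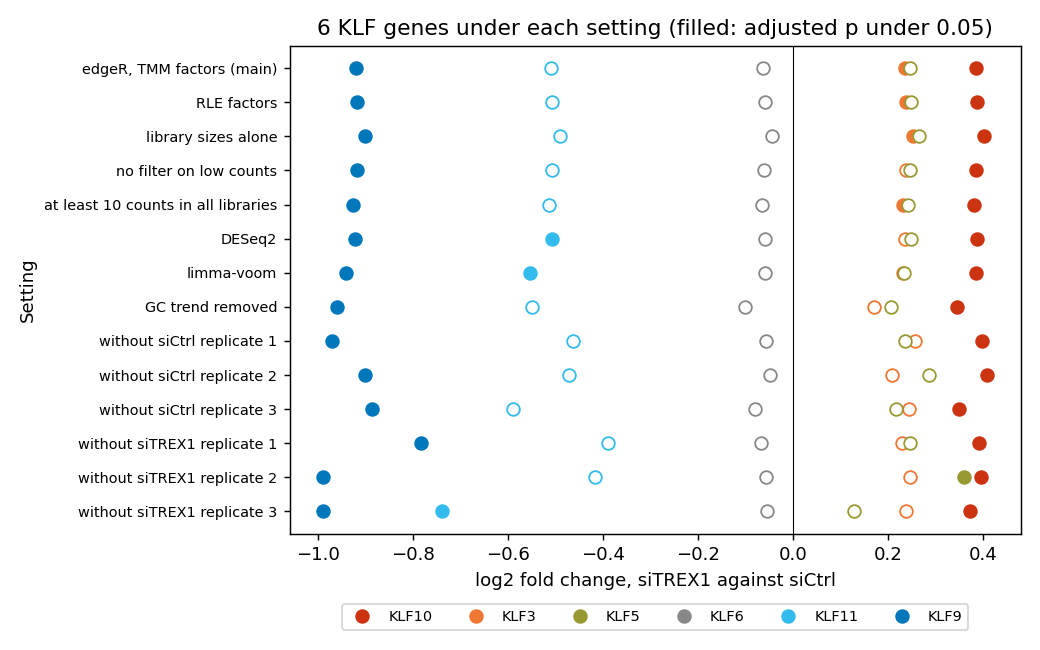
Log2 fold change (log2FC) of 6 KLF genes (horizontal axis) under each scaling, filter and test and with each library left out (vertical axis), filled where the adjusted p was under 0.05. KLF10 (0.35 to 0.41) and KLF9 (-0.99 to -0.78) were filled in every row, whereas KLF3 was filled in no row that leaves out a library and KLF11 and KLF5 moved with the library left out.

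Of 17 further members of the KLF and SP family 16 were listed and 9 tested, with 4 higher, 2 lower and 3 not past the test, and their median log2FC was 0.14. The shares over all tested genes were 17.8% higher and 15.5% lower, and this small list was not tested as a set. The 4 higher ones were SP genes, relatives of the KLFs that bind GC boxes. SP2 went from 16.3, 16.8 and 18.2 CPM to 31.4, 33.5 and 32.8 CPM, a log2FC of 0.93 (SE 0.06, adjusted p = 0.000297 by edgeR). SP4 was at 0.51 (adjusted p = 0.00875), SP9 at 0.42 (adjusted p = 0.00407) and SP3 at 0.33 (adjusted p = 0.0223 by edgeR), the last lost with a GC trend removed (adjusted p = 0.0724) and on leaving out any of siCtrl replicates 1 and 3 and siTREX1 replicates 1 and 2 (0.0564 to 0.0761). The 2 lower ones were KLFs. KLF15, a further target of the glucocorticoid receptor, fell from 4.54 ± 0.362 to 2.67 ± 0.0727 CPM (SD, n = 3), a log2FC of -0.76 (SE 0.16, adjusted p = 0.0132 by edgeR), lost without siCtrl replicate 3 (adjusted p = 0.0573). KLF16, a Sin3A-binding member whose listed transcript has 67.8% G and C and whose level of 87.6 CPM with siCtrl exceeded that of all 10 genes, had a log2FC of -0.21 (adjusted p = 0.0318 by edgeR) that was 0.04 with a GC trend removed (adjusted p = 0.545). That call was also lost on leaving out any of siCtrl replicates 2 and 3 and siTREX1 replicates 1 and 3 (adjusted p = 0.0790 to 0.101).

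Among 18 partners of KLF proteins, 5 were higher, 3 lower and 10 were not past the test, with a median log2FC of 0.03. The shares over all tested genes were 17.8% higher and 15.5% lower. EP300 and CREBBP, the acetyltransferases that activating KLFs recruit, rose. EP300 went from 18.9, 19.2 and 20.4 CPM to 29.9, 30.1 and 30.9 CPM, a log2FC of 0.63 (SE 0.05, adjusted p = 0.000617 by edgeR), and CREBBP had a log2FC of 0.74 (SE 0.11, adjusted p = 0.00396). SIN3A, the corepressor bound by KLF9, KLF10, KLF11 and KLF13, fell from 46.3 ± 4.30 to 30.5 ± 3.83 CPM (SD, n = 3), a log2FC of -0.60 (SE 0.11, adjusted p = 0.00911 by edgeR), while SAP18, a small subunit of Sin3 complexes, was at 0.18 (adjusted p = 0.00309). The acetyltransferase KAT2A (0.27, adjusted p = 0.0273) and the deacetylase HDAC1 (0.15, adjusted p = 0.0295 by edgeR) were higher by little. KAT2A lost its call without any 1 library other than siTREX1 replicate 1 (adjusted p = 0.0501 to 0.0858), and HDAC1 with a GC trend removed (0.0554) and on leaving out any of siCtrl replicates 1 and 2 and siTREX1 replicates 1 and 2 (0.0560 to 0.0878).

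Of 23 tested regulators of KLF genes or proteins, 4 were higher, 3 lower and 16 were not past the test, with a median log2FC of 0.13. These counts are near the shares over all tested genes, 17.8% higher and 15.5% lower. The receptors that induce KLF9 differed in direction. THRA, thyroid hormone receptor alpha, was at 12.6, 11.2 and 12.2 CPM with siCtrl and fell to 5.22, 6.34 and 5.01 CPM, a log2FC of -1.12 (SE 0.13, adjusted p = 0.00150 by edgeR), and NR3C1, the glucocorticoid receptor, was higher at 0.25 (SE 0.05, adjusted p = 0.0138). MEF2D, of the MEF2 factors that act on KLF2 and KLF4, fell by 0.63 on the log2 scale (SE 0.12, adjusted p = 0.00954). The MEF2 genes MEF2A (0.01, adjusted p = 0.982) and MEF2C (0.17, adjusted p = 0.516 by edgeR) were not past the test. SMAD3, which carries the TGF-beta signal, fell by 0.28 (SE 0.05, adjusted p = 0.00585), whereas SMAD2, which carries the same signal and was picked after its values were seen, was higher at 0.29 (SE 0.08, adjusted p = 0.0334 by edgeR). SMAD2 lost its call on leaving out any siCtrl library or siTREX1 replicate 2 (adjusted p = 0.0718 to 0.101). The ubiquitin ligase genes VHL (0.37, adjusted p = 0.00352) and SIAH1 (0.23, adjusted p = 0.0189 by edgeR), whose proteins mark KLF4 and KLF10 for degradation, rose, and SIAH1 lost its call on leaving out any of siCtrl replicate 2 and siTREX1 replicates 1 and 2 (adjusted p = 0.0501 to 0.0579).

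Of 22 tested genes reported elsewhere as targets of KLF proteins, 5 were higher, 8 lower and 9 were not past the test, with a median log2FC of -0.06. Over all tested genes 17.8% were higher and 15.5% lower, and the list was not tested as a set. SMAD7, an inhibitor of TGF-beta receptors that KLF10 is known to repress, rose from 10.3 ± 0.776 to 24.2 ± 0.759 CPM (SD, n = 3), a log2FC of 1.24 (SE 0.08, adjusted p = 0.000239 by edgeR). TAGLN, a smooth muscle gene under KLF4 and KLF5, was at 1.01 (SE 0.09, adjusted p = 0.000617), and CDKN1B, a cyclin-dependent kinase inhibitor, at 0.40 (SE 0.04, adjusted p = 0.000862). TXNIP, an inhibitor of thioredoxin, fell from 155 ± 4.31 to 80.3 ± 0.803 CPM (SD, n = 3), a log2FC of -0.95 (SE 0.03, adjusted p = 4.4e-05 by edgeR). CDKN1C, another cyclin-dependent kinase inhibitor, fell by 1.59 on the log2 scale (SE 0.11, adjusted p = 0.000332), and GAP43, a growth cone protein and target of Klf7 in mice, by 0.22 (SE 0.03, adjusted p = 0.00226). CDKN1A, the p21 gene that KLF4 and KLF6 activate, and CCND1, the cyclin D1 gene that KLF5 activates, were picked after their values were seen. They fell by 0.31 (SE 0.06, adjusted p = 0.0114) and 0.32 (SE 0.05, adjusted p = 0.00515 by edgeR). Of the called genes of the list not named so far, CCNB1 (0.28) and ATF3 (0.40) were higher. The rest, NOS3 (-0.97), PDGFA (-0.51) and PLAT (-0.54), were lower (adjusted p = 0.00415 to 0.0271 by edgeR, CCNB1 and ATF3 included). These genes were not followed through the alternatives.

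**Figure D4:**
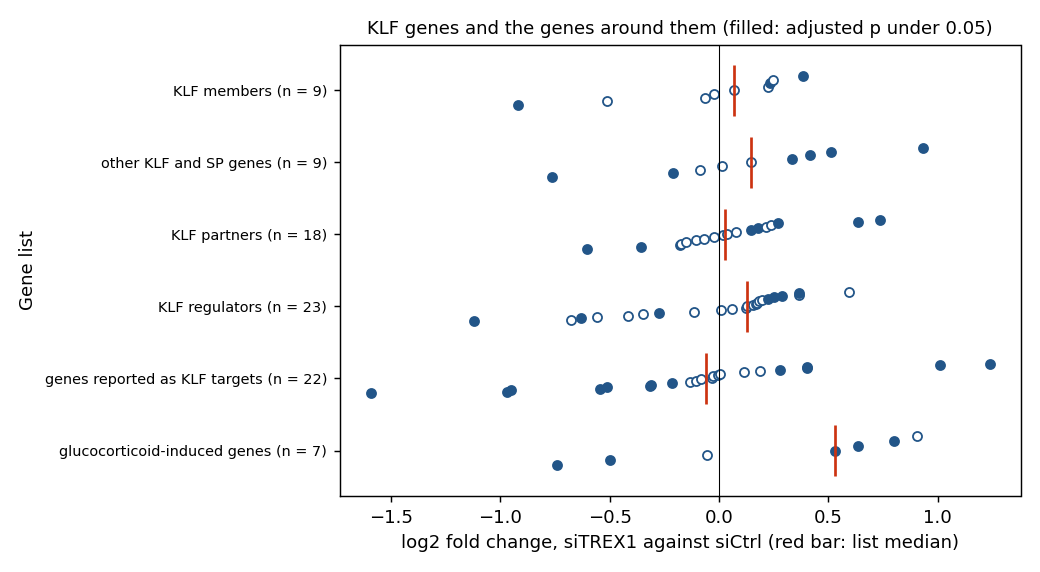
Log2 fold change (log2FC) of each tested gene (points, filled where the adjusted p was under 0.05) in the KLF genes and in 5 lists of genes around them, with a red bar for the list median. Each list held genes on both sides of 0, with medians from -0.06 for the target list to 0.53 for the glucocorticoid list of 7 genes.

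KLF9 stood with some glucocorticoid-induced genes and apart from others. Of 7 tested genes of that list 3 were higher, 2 lower and 2 were not past the test, against 17.8% higher and 15.5% lower over all tested genes. The clock gene PER1 (-0.74, SE 0.10, adjusted p = 0.00286) and FKBP5, a chaperone of the glucocorticoid receptor (-0.50, SE 0.06, adjusted p = 0.00200), fell as KLF9 did. ERRFI1, an inhibitor of the EGF receptor (0.80, SE 0.03, adjusted p = 5.55e-05), DUSP1, a MAP kinase phosphatase (0.64, SE 0.11, adjusted p = 0.00725), and the transcription factor gene CEBPD (0.53, SE 0.16, adjusted p = 0.0437 by edgeR) rose. CEBPD lost its call without any 1 library other than siTREX1 replicate 2 (adjusted p = 0.0579 to 0.125) and without a filter on low counts (0.0570).

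For each of KLF9, KLF10 and KLF3, the genes whose log2 CPM over the 6 libraries was most like its own were sought among 11431 well-expressed genes. For KLF9 these included GALNT13 and GSTZ1, with Pearson r of 0.999 and 0.996 and log2FCs of -0.40 and -0.38. For KLF10 they were KIF1B, RIOK1 and SLC25A46, with r of 0.999, 0.998 and 0.997 and log2FCs of 0.70, 0.47 and 0.41. For KLF3 they were C1orf174, RBM28 and ORC5, with r of 0.999, 0.999 and 0.998 and log2FCs of 0.47, 0.41 and 0.35. These values describe 6 libraries in 2 groups, so that any genes that differ between the groups share that difference, and an r above 0.9 was common, with 1101 genes for KLF9, 1773 for KLF10 and 1664 for KLF3.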

How the data were processed

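RNA of H69AR cells was sequenced as read pairs from a strand-specific kit, with 3 libraries per group. The authors quantified transcripts with kallisto (version not given in the sources used here) and deposited estimated counts (tximport, scaledTPM option), scaled to each library's depth and free of transcript length, for 1 transcript per gene symbol. Every gene named here, those of the lists included, was thus seen through 1 transcript, which for some is short or not protein-coding. The submitters' processing notes name FastQC and hg19, and the coordinates printed here are GENCODE 29 on GRCh38 or RefSeq on GRCh38.p14, matched by identifier (99.3% of listed transcripts were in GENCODE 29). A line with no gene symbol, 0.0925% to 0.109% of a library, was left out.

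After rounding, the gene test was that of edgeR 4.0.16 under R 4.3.3 (robust quasi-likelihood test, TMM factors, filterByExpr with a minimum count of 10, all 6 libraries, no covariates). Standard errors are the log2 fold change over the root of F, and p-values were adjusted over 13221 genes by the Benjamini-Hochberg method. Whether the libraries came from separate cultures is not stated, and the p-values rest on library-to-library spread, which may be technical only. Pairs of libraries within a group differed with a chi-square per degree of freedom of 7.25 to 10.9, and each library was counted as 1 sample. The gene test was tested on simulated data with 200 planted genes.

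The members and gene lists were chosen with earlier results of these data known. Named genes were the 10 members, TREX1, up to 6 called genes with the lowest p of each list, and for the called members the 3 genes with the highest Pearson r among genes averaging at least 1 log2 CPM. Alternatives were DESeq2 1.42.0, limma-voom (limma 3.58.1), library sizes alone or RLE factors in place of TMM, a floor of 10 counts in each of the 6 libraries, no filter, the replicate number as a block, a GC trend removed from each library, both of the latter, and each library left out. Protein sequences were not used here, and 1 of the genes most like KLF9 is not reported here.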

Additional observations from a re-analysis of the deposited data

How the results depend on the processing

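The 2 higher calls among the KLF genes became 1 without a filter on low counts, in DESeq2, with a GC trend removed, with the replicate number as a block and with block and GC trend together, since the call of KLF3 was lost, and were 1 to 2 with a library left out, the 2 being KLF10 and KLF5 without siTREX1 replicate 2. The 1 lower call became 2 in DESeq2 and limma-voom and was 1 to 2 with a library left out, through KLF11. KLF10 and KLF9 were called in all 15 alternatives (adjusted p at most 0.0168 and 0.0407). Whether replicate numbers pair the libraries was not settled, as all correlations of deviations between the groups were near 0 (-0.043 to 0.041). Same-numbered ones were 0.02, 0.04 and 0.02. For siCtrl replicates 2 and 3 the same number correlated best, and for siCtrl replicate 1 it was siTREX1 replicate 3 (0.021 against 0.017). With the replicate block KLF3 had an adjusted p = 0.0917, KLF15 0.0570, KLF16 0.0695, HDAC1 0.0648, SIAH1 0.0633, SMAD2 0.0802 and CEBPD 0.104, and with block and GC trend together SAP18 (0.0814), NR3C1 (0.0855) and CDKN1A (0.0530) were also lost. With the block alone 1901 genes were called higher and 1518 lower. The sign of KLF2 reversed to 0.001 with at least 10 counts in all libraries, 0.235 in limma-voom, 0.184 with a GC trend removed, 0.091 with the block, 0.293 with both, and ran from -0.37 to 0.35 with a library left out. KLF16 reversed to 0.037 with a GC trend removed, also with the block. Of the other alternatives for KLF genes 112 kept direction and side of the threshold. Over all genes 2349 were called higher and 2049 lower, and every alternative was within 1.5 times of both. Few estimated counts limit KLF2, KLF4 and KLF13, and as these counts are free of transcript length they are not numbers of reads.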

Other observations

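Family members too low to test were listed at few estimated counts. KLF1, the erythroid factor, had 13, 5 and 16 across the siCtrl libraries, against 4, 5 and 2 across those labelled siTREX1. In CPM its groups did not overlap, nor did those of the likewise untested KLF14 and SP7. Among all tested genes 50.4% did not overlap either. For KLF8 the listed transcript is a retained intron form, at 0.294 ± 0.0664 CPM (SD, n = 3) with siCtrl and 0.316 ± 0.0710 CPM (SD, n = 3) in the libraries labelled siTREX1.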
